A study of Drosophila melanogaster with 15 samples.

Results

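The early transcriptional response of male Drosophila melanogaster to ethanol was read from the 10 arrays of control flies and of flies after their 1st exposure, 5 of each, among the 15 arrays of the series. The members are all probe sets whose Signal averaged 20 or more across the 15 arrays, which were 13809 of the 18769 that remained without the hybridization controls. A probe set is a group of short oligonucleotides that reads 1 transcript or a few related ones, and Signal is its background-corrected brightness on a linear scale. By the labels and methods, every array held RNA of whole bodies of 30 Canton-S B males, a single isogenic strain, aged 3 to 5 days. Control males were frozen without ethanol and, as the methods describe them, without passing through the inebriometer, a column of ethanol vapor out of which flies fall as they lose postural control. Males of the 1st exposure were those that eluted at 3 to 5 minutes, and they were frozen at once. The remaining 5 arrays, used here for the common estimate of the spread and for values set beside the others, held males that recovered for 2 h and were exposed again. Ethanol, the passage through the column and the choice of flies by elution time all separate the exposed from the control males, and their effects cannot be told apart.

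Flies oxidize ethanol through acetaldehyde to acetate, which is joined to coenzyme A and enters lipid synthesis or respiration. As a vapor it also reaches the antenna directly, where odorant-binding proteins of the sensillar fluid carry odorants to receptors on olfactory neurons, and where esterases, dehydrogenases and transferases break odorants down. Stress proteins, stress kinases and the immediate early transcription factors of excited neurons are classes of genes whose transcripts can change within minutes.

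The median Signal was 136 to 139 on control arrays and 130.1 to 133 after the 1st exposure, and 23.8% to 26.2% and 25.1% to 27.2% of the probe sets lay under 20. Within the 1st exposure the arrays did not form a single cloud on the largest single component of the residual variance, which held 13.5% of it. There arrays 1 and 3 scored 15.03 and 29.07, and arrays 2, 4 and 5 scored -16.8, -13.5 and -13.8. Control arrays scored -9.39 to 6.29. The sex of the flies was checked against marker genes. Yp1 and Yp2, yolk proteins of females, stayed at or under 54.3 on each of the 10 arrays, but 2nd exposure array 5 read 2521 for Yp1, 1669.5 for Yp2 and 1660.8 for Yp3, against at most 147.0 for any of them on the other arrays. That array enters the common estimate of the spread, and without it 36 probe sets differed between the 1st exposure and control, 34 of them among the 50 described next. The seminal protein gene Acp53Ea gave 17347 to 24618, and the sperm gene Mst84Dc gave 12403 to 16639.

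After the 1st exposure, 50 probe sets differed from control at a limma adjusted p under 0.05, 24 higher and 26 lower, which is 0.362% of those tested. The lower ones included 13 genes of olfactory and related lists, among them 7 odorant-binding proteins with log2 differences of -0.52 to -2.39. The higher ones had mostly smaller changes and few members of any list. They included 2 of 21 genes of ubiquitin ligation and endosomal sorting, 1 of 42 proteasome genes and 2 of 23 actin regulators. Of 42 cytosolic ribosomal protein genes 2 were higher, as was 1 Hsp70 probe set. The lists named here for the higher calls had medians of -0.01 to 0.05. The differences of the 50 had a median size of 0.74 on the log2 scale, and 19 exceeded 2-fold, of which 16 were lower. For 48 of the 50, the 5 arrays of each group lay on separate sides, which held for 2.8% of all tested probe sets. The median log2 difference over all tested probe sets was -0.02, and 56.8% lay below 0. At an unadjusted p under 0.05, 910 were lower (6.59%) and 540 were higher (3.91%). This balance depended on the scaling of the arrays: with their medians equalised, 59 were called higher and 22 lower, 483 were lower and 1171 higher at an unadjusted p under 0.05, the overall median was 0.04 and 39% lay below 0. The calls were not equally stable. In fits that left out 1 of the 15 arrays, 15 of the 50 calls were kept each time (12 lower and 3 higher), and 23 were lost in more than 7 of the 15 fits. Leaving out 1st exposure array 3, which had the lowest estimated array weight, left 16 probe sets, 4 higher and 12 lower. Leaving out control array 5, which was the highest of its group for many genes of the head and of muscle, left 26 higher and 22 lower. As the methods describe it, the 3 pools of a replicate came from the same starting flies, while the labels do not say that arrays of 1 number belong together. With the replicate number as a block, 29 of the 50 calls were kept. The 21 lost were 15 higher and 6 lower. The higher were Arpc3B, Caper, cDIP, CG13693, CG15673, CG2962, CG5767, CG6262, Eglp2, Pino, Prosbeta6, Slc25A46a, TSG101 and 2 probe sets without a single gene name. The lower were CG12483, CheB42b, disp, GstD11, Hrb98DE and Ir25a.

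**Figure D1:**
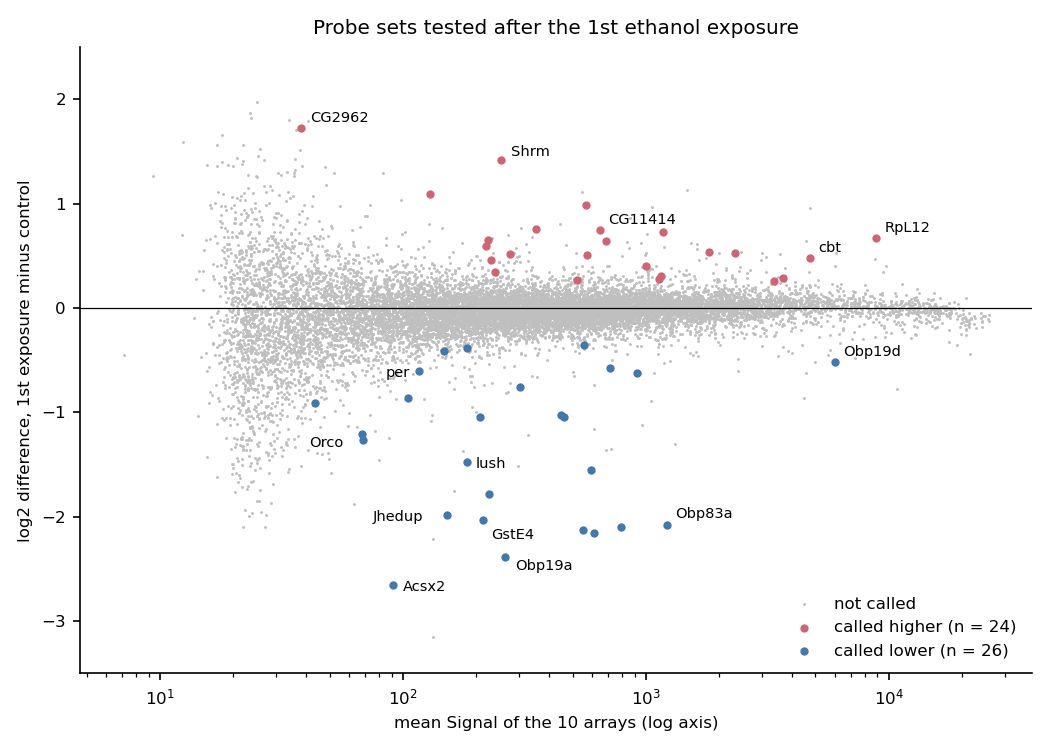
Each point is 1 of the 13809 tested probe sets, plotted by its mean Signal over the 10 arrays (log axis) and by its log2 difference between the 1st exposure and control. The 26 probe sets called lower reach -2.65 (Acsx2), while those called higher stay at or under 1.72 (CG2962).

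Genes of the olfactory and antennal lists made up most of the reductions over 2-fold. Of 37 measured odorant-binding proteins, 7 fell and none rose, against 0.188% of all tested probe sets that were lower. In 9 of the 37 the groups did not overlap, against 2.8% of all tested probe sets. The median difference of the family was -0.19, and 27 of the 37 lay below 0, beside 56.8% of all tested probe sets. In bulk RNA of whole flies, fewer cells of a type and less RNA per cell cannot be told apart. Obp83a and Obp83b, neighbouring genes of sensilla on the third antennal segment, are described first. Signal of Obp83a was 2005, 1733, 1312, 2004 and 2857 on the control arrays and 606, 474, 408, 462 and 361 after the 1st exposure. Obp83b read 1390.2, 1281, 798, 1407 and 1558 in control and 393, 333, 234, 299.8 and 238 in exposed males. In both genes the highest exposed array was below the lowest control array, control array 5 was highest and control array 3 lowest. Obp83a fell by 2.08 ± 0.27 on the log2 scale (SE, adjusted p = 0.0054) and Obp83b fell by 2.10 ± 0.29 (adjusted p = 0.00729).

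The gene lush encodes the odorant-binding protein needed for the response to the male pheromone cis-vaccenyl acetate, and it is known to bind short-chain alcohols. Its Signal was 309.7, 244, 218, 264 and 321 on the control arrays. After the 1st exposure it was 109, 91.1, 98.3, 101 and 85.3. The exposed arrays spanned 85.3 to 109 and the control arrays 218 to 321, so the gap between the groups was wider than the spread within either, and lush fell by 1.48 ± 0.17 (adjusted p = 0.00369), a call kept in all 15 fits that left out an array. Obp28a, a carrier of basiconic sensilla, read 374, 297, 211, 372 and 512 in control and 117, 95.8, 69.3, 115 and 106 in exposed males, and fell by 1.78 ± 0.24 (adjusted p = 0.00729). Obp69a read 910.3, 831, 654, 942 and 1101 and then 366, 279.9, 247, 327 and 288, and fell by 1.55 ± 0.22 with the same adjusted p. Both had control array 3 lowest and control array 5 highest, and neither had overlapping groups.

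Obp19a showed the largest reduction of the family. It read 481, 357, 277, 494 and 604 in control and 123.2, 70.2, 71.3, 91.8 and 64.3 after exposure, and fell by 2.39 ± 0.34 (adjusted p = 0.00729). Its second, dimmer probe set fell short of the threshold at -2.21 (Obp19a, adjusted p = 0.132). The smallest called change belonged to Obp19d, a protein also found in taste organs, which went from 7109 ± 1038 (SD, n = 5) to 4929 ± 259 (log2 difference -0.52 ± 0.09, adjusted p = 0.0199). Its control array 5 stood apart at 8895, and the other control arrays, at 6300.0 to 7046, were still above the exposed ones, at 4552 to 5215. Obp84a had a mean of 97.6 ± 32.3 in control and 28.1 ± 13.2 after exposure, with 1 control array (43.6) inside the exposed range, and did not pass (adjusted p = 0.0838).

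Abundant members of the same family read close to control. Obp56g had a mean Signal of 21190 ± 2967 in control and 19250 ± 1197 after exposure (adjusted p = 0.665). For Obp44a the means were 12100 ± 1121 and 11940 ± 742, and for Obp99c they were 12250 ± 884 and 12060 ± 828, with log2 differences of -0.02 in both (SE 0.07 and 0.10). The 30 family members that were not called had a median difference of -0.09, and 10 of the 37 measured members lay above 0.

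Other secreted and enzymatic proteins of the antenna gave like values. Of the 9 genes on the list of other antennal proteins, 4 fell, 1 rose (Pino) and 4 did not pass, with a median of -1.04. Of all tested probe sets 0.188% were lower and 0.174% higher. The chemosensory protein gene a10 had Signal values of 934, 912, 655, 897 and 1060.1 in control and 338, 206, 136, 219.7 and 162 in exposed males. Os-C, a secreted protein of the olfactory organ, read 968, 967, 696, 1032 and 1362 and then 273, 253, 157, 242 and 199.5. The groups were far apart in both: a10 fell by 2.13 ± 0.30 (adjusted p = 0.00729) and Os-C fell by 2.15 ± 0.33 (adjusted p = 0.0121). The largest measured difference on the list, -3.15 ± 0.80 for the antennal protein gene a5, did not pass (adjusted p = 0.148). Its groups did not overlap, at 169 to 278 in control and 2.1 to 53.1 after exposure, with exposed array 5 alone at 2.1, and it passed in none of the 15 fits that left out an array. The a5 call depended on the scale. Its adjusted p was 0.000397 with log2(Signal + 50), 0.00172 with analysis of variance of linear Signal and 0.0429 with an eBayes trend. With the other normalizations and filters, the block, arrayWeights, the 10 arrays, averaged arrays and the residual component it was 0.0735 to 0.308. OS9, isolated from the olfactory organs, went from 622 ± 118 to 299 ± 37.9, and fell by 1.05 ± 0.14 (adjusted p = 0.00619).

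Enzymes that act on odorants and other small molecules followed. Jhedup, a carboxylesterase related to juvenile hormone esterase, read 270.4, 241, 158, 259 and 287 in control and 81.5, 81.9, 49.3, 42.8 and 57 after exposure. It fell by 1.98 ± 0.24 (adjusted p = 0.00383), with the lowest control array at 158 and the highest exposed array at 81.9. Antdh, a short-chain dehydrogenase of the antenna, read 246, 278, 216, 248 and 413 and then 124, 174, 112, 151 and 113. Its groups were separate but closer, and it fell by 1.04 ± 0.18 (adjusted p = 0.0255), a call kept in 8 of the 15 fits that left out an array. Snmp1, which assists pheromone detection, had means of 157 ± 16.6 and 120.5 ± 20.6 and did not pass (adjusted p = 0.251). The glycosyltransferase gene Ugt35B1 read 2659 ± 226 and 2269 ± 135 (adjusted p = 0.289).

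**Figure D2:**
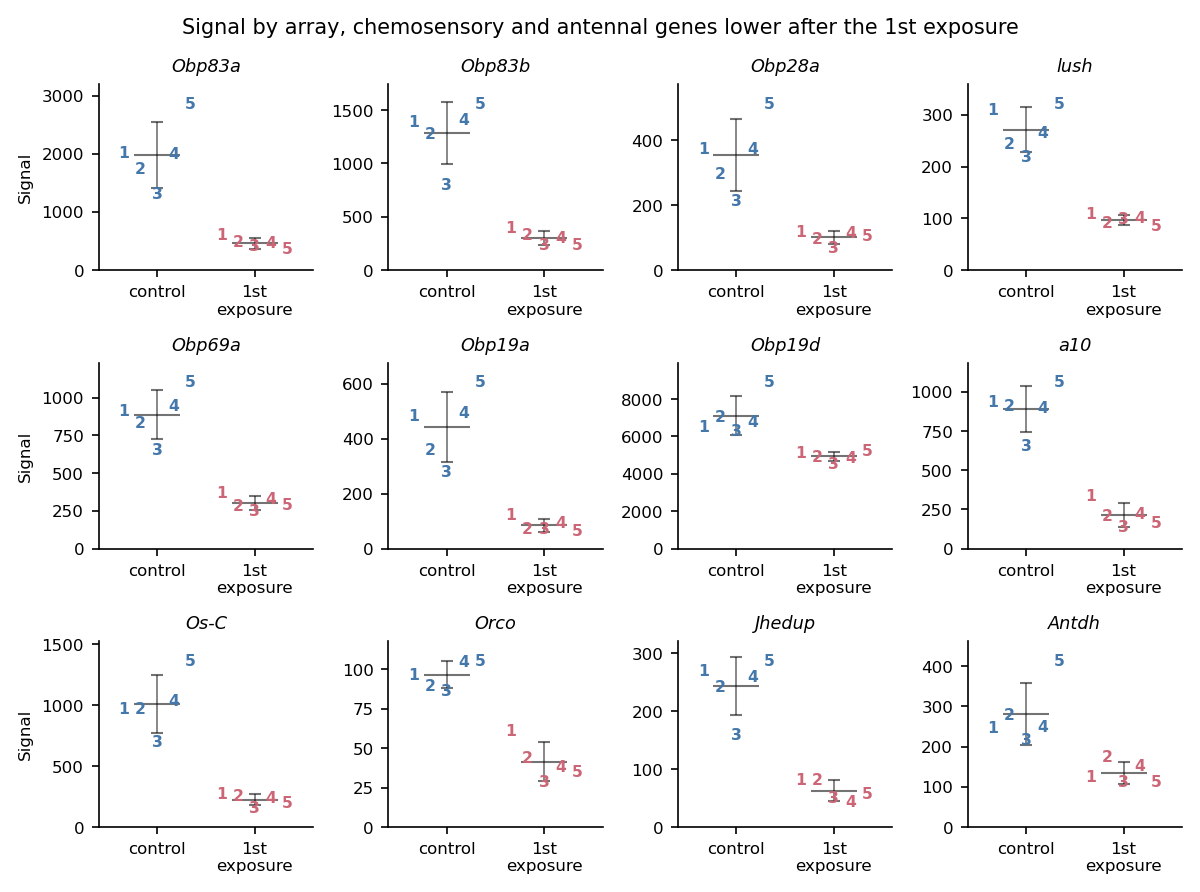
Signal (linear axis from 0) of 12 genes of the odorant-binding, receptor and antennal lists on the 5 control and 5 exposed arrays, each digit being the replicate number of 1 array, with the mean (line) and SD (bars) of each group. In each panel the exposed arrays lie below the control arrays, and control arrays 5 and 3 are the highest and the lowest of their group.

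Receptors were dim on these arrays, and 15 of 57 odorant receptor genes reached the Signal minimum. Orco, the co-receptor that every odorant receptor neuron of this class needs, was the only 1 of the 15 to fall, beside 0.188% of all tested probe sets. Its values were 96.6, 89.6, 86.2, 105 and 105 in control and 61.1, 43.9, 28.2, 38.3 and 35.1 after exposure, and it fell by 1.27 ± 0.21 (adjusted p = 0.0199), with array 1 the highest of the exposed. Ir25a, a co-receptor of the ionotropic receptors, was the only 1 of 11 measured members to pass, beside the same 0.188%. It read 51.4, 57.3, 62.8, 37.3 and 77.1 and then 26.9, 27.4, 28.9, 28.7 and 36.7, and control array 4 (37.3) lay just above exposed array 5 (36.7). Ir25a fell by 0.91 ± 0.17 (adjusted p = 0.0449), a call kept in 3 of the 15 fits that left out an array. None of the 15 measured gustatory receptors was called. CheB42b, of a family of chemosensory proteins of taste hairs, fell from 169 ± 16.3 to 126 ± 10.2 (log2 difference -0.41 ± 0.08, adjusted p = 0.0427). Its call was kept in 3 of the 15 fits that left out an array.

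The antennal genes that fell shared much of their order among the control arrays. The mean log2 Signal of 12 of them, chosen after their values were seen, was set relative to the control mean of each gene. It was 0.06, -0.07, -0.45, 0.07 and 0.39 on the control arrays and -1.35, -1.62, -2.01, -1.66 and -1.87 on the exposed arrays. Control array 5 was the highest and control array 3 the lowest in 12 of the 12 genes, an order that 5.4% of all tested probe sets had. It did not hold for Ir25a, which was not among the 12 and had control array 4 lowest. In the 12, exposed array 1 was the highest in 9 and exposed array 3 the lowest in 8. The 2nd exposure arrays gave -1.71, -1.06, -2.22, -1.44 and -2.13. Lists of other tissues of the head were weighed beside this. None of 12 neuronal, 7 glial or 15 phototransduction genes was called, and their medians were -0.14, -0.07 and -0.14. With array medians equalised these were -0.08, -0.01 and -0.08. Below 0 lay 8, 4 and 14 genes, beside 56.8% of all tested probe sets. At an unadjusted limma p under 0.05, 2, 1 and 4 were lower, beside 6.59% of all tested probe sets. The summed Signal of the neuronal list was 10039 to 12689 in control and 9692 to 10872 after exposure, and that of the phototransduction list was 42016 to 56391 and 40281 to 43415. Control array 5 also had the highest Signal of Arr1 (13162), Arr2 (22023) and trp (3225), genes of the eye. The part of tissue recovery in these values was not tested.

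Further enzymes fell outside the antennal lists. GstE4 and GstD11 were the only glutathione S-transferases among 32 to differ, beside 0.362% of all tested probe sets. Of the 32, 25 lay above 0 (median 0.08, or 0.14 with array medians equalised), while 56.8% of all tested probe sets lay below 0. GstE4 read 410.4, 369.5, 158, 348 and 445 in control and 84.4, 85.9, 52.8, 96.3 and 87.7 after exposure. It fell by 2.03 ± 0.31 (adjusted p = 0.0114), with control array 3 far below the other control arrays but above every exposed one. GstD11 went from 93.8 ± 16.4 to 42 ± 14.6 (log2 difference -1.20 ± 0.20, adjusted p = 0.0196). Acsx2, of the acyl-CoA synthetase family that activates fatty acids, had Signal values of 198, 116, 117, 144 and 189.9 and then 24.3, 12.5, 36.9, 58.6 and 11.5. It fell by 2.65 ± 0.40 (adjusted p = 0.0112), the largest change called, and the other 9 measured members of its list did not pass.

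Genes of less known function and single members of other classes made up the rest of the lower calls. CG9682 read 875, 774, 934, 839.7 and 827 in control and 652, 612, 549, 572 and 476 after exposure and kept its call in all 15 fits without an array (log2 difference -0.58 ± 0.08, adjusted p = 0.00729). CG9497 went from 608 ± 154 to 292 ± 36.2 (adjusted p = 0.0215), and CG15210 from 385 ± 78.9 to 226 ± 20.8 (adjusted p = 0.0199). CG12158 went from 1121 ± 113 to 729 ± 58.4 (adjusted p = 0.0199) and CG12483 from 136 ± 19.2 to 75 ± 10.8 (adjusted p = 0.0449). The groups did not overlap in any of these 5 genes. The gene disp, whose product releases lipid-bound Hedgehog from cells, fell by 0.39 ± 0.07 (adjusted p = 0.0427). The calls of disp and CG12483 were kept in 4 and 3 of the 15 fits that left out an array. Hrb98DE, an RNA-binding protein gene, was lower only by its dimmer probe set, at -0.35 ± 0.07 (adjusted p = 0.0495), while its brighter one read 2529 and 2440 (Hrb98DE, adjusted p = 0.881). The call was lost in each of the 15 fits that left out an array.

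Among 14 measured circadian clock genes, 1 fell and none rose (median -0.08), beside 0.188% of all tested probe sets that were lower. The repressor gene per read 145, 150.2, 145, 118 and 144 in control and 111, 85.7, 105, 67.4 and 99.6 after the 1st exposure, with exposed array 1 (111) just below control array 4 (118), and fell by 0.60 ± 0.12 (adjusted p = 0.0493). That call was lost in each of the 15 fits that left out an array. Signal of tim, the partner of per, was 1297, 1178, 1436, 1325 and 1414 and then 1027, 1039.8, 1037, 1072 and 972, without overlap, but the difference of -0.37 ± 0.11 did not pass (adjusted p = 0.212). The activator gene Clk had means of 742 ± 79.8 and 663 ± 41 (adjusted p = 0.536) and the output gene vri 724 ± 36 and 777 ± 15 (adjusted p = 0.722).

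The higher calls kept in every fit that left out an array were CG11414, RpL24-like and cbt. CG11414, annotated as the counterpart of the ubiquitin ligase ZNF598 that acts on stalled ribosomes in mammals, read 488, 443, 511, 449 and 529 in control and 818, 854, 829, 801 and 750.2 after the 1st exposure. It rose by 0.75 ± 0.06 on the log2 scale (adjusted p = 0.000193), the smallest adjusted p of the comparison, and kept its call in all 15 fits that left out an array. RpL24-like, a ribosome assembly factor related to a ribosomal protein, read 1498, 1518, 1496, 1433 and 1508 and then 1957, 2319.5, 2102, 2279.5 and 2132. Its control arrays spanned only 1433 to 1518, and it rose by 0.53 ± 0.07 (adjusted p = 0.00383).

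Of 21 genes of ubiquitin ligation and endosomal sorting, 2 rose and none fell, against 0.174% of all tested probe sets that were higher. Besides CG11414 this was TSG101, a subunit of the complex that sorts ubiquitinated cargo into multivesicular bodies, with Signal values of 1731, 1779, 1950.4, 1730.3 and 2416 in control and 2908, 2666, 2838, 2693 and 2593 after exposure. Control array 5 (2416) came near the lowest exposed array (2593), and the rise was 0.52 ± 0.09 (adjusted p = 0.0262). The ubiquitin ligase gene mib1, which acts in Notch signalling, read 460.1 ± 30.3 and then 557 ± 48.2 (adjusted p = 0.164). The conjugating enzyme gene CG40045 read 2714 ± 236 and then 3228 ± 196 (adjusted p = 0.151), and the endosomal gene Stam 783 ± 75.2 and then 935 ± 33.4 (adjusted p = 0.17). The median of the list was 0.01, with 11 above 0 and 10 below. Of 42 proteasome subunits 32 lay above 0 (median 0.05, or 0.11 with array medians equalised), while 56.8% of all tested probe sets lay below 0. Only Prosbeta6 of the catalytic core passed, beside 0.174% of all tested probe sets that were higher. It read 2948, 3178, 3242, 2836 and 3221 and then 3787, 3571, 3709, 3728 and 3641, a rise by 0.26 ± 0.05 (adjusted p = 0.0498) that was lost in each fit without an array. The core gene Prosbeta7 read 4886 ± 151 and 5224 ± 33.9, and did not pass (adjusted p = 0.466).

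Cytosolic ribosomal proteins as a group stayed near control, with a median of -0.01 over 42 genes. Of these 2 were called higher, beside 0.174% of all tested probe sets (RpL12 and RpL24-like, which the list includes though it acts in assembly). RpL12 read 5914, 6753, 7329, 5785 and 8806 in control and 10416, 11105, 11019, 11202 and 10701 after exposure and rose by 0.67 ± 0.11 (adjusted p = 0.0199). Its exposed arrays lay within 10416 to 11202, while the control arrays were spread over 5785 to 8806. RpL3 was higher by a dim probe set, from 228 ± 27 to 327 ± 40.1 (adjusted p = 0.0438), but its bright probe set read 15650 and 15480 (RpL3, adjusted p = 0.969). The dim probe set kept its call in 1 of the 15 fits that left out an array. No mitochondrial ribosomal protein (of 69) and no translation factor (of 47) was called.

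Of 15 immediate early and activity-regulated genes, 1 rose, beside 0.174% of all tested probe sets that were higher. The zinc finger transcription factor gene cbt read 4227, 3994, 4025, 4011 and 3582 in control and 5382, 5429, 5693, 5428 and 5668 after the 1st exposure. It rose by 0.48 ± 0.06 (adjusted p = 0.00369), and 15 of 15 fits without an array kept the call. Hr38, the activity marker of fly neurons, read 140.5, 148, 139.8, 195 and 140.4 and then 149.7, 118, 170.4, 131 and 120.4, and the groups overlapped (adjusted p = 0.784). The activity gene sr read 100.3 ± 9.92 and 103 ± 19.6 (adjusted p = 0.986), and kay, the fly Fos gene, read 1190 ± 130.5 and 1145 ± 65.9 (adjusted p = 0.897). Jra, the fly Jun gene, read 557 ± 20.7 and then 634 ± 37.8 without overlap, but did not pass (adjusted p = 0.233). Caper, a splicing factor gene, rose from 1030 ± 38.9 to 1274 ± 63.1 (log2 difference 0.31 ± 0.06, adjusted p = 0.0488). It kept its call in 1 of the 15 fits that left out an array.

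Of 23 actin regulators, 2 rose and none fell (median 0.03, 17 above 0), beside 0.174% of all tested probe sets that were higher. Shrm kept its call in 7 and Arpc3B in 5 of the 15 fits that left out an array. Shrm, which binds actin at cell junctions, read 147, 102, 128, 103 and 237 in control and 334, 379.9, 390.2, 387 and 329 after exposure. It rose by 1.42 ± 0.24 (adjusted p = 0.0232), and control array 5 (237) was the nearest to the exposed arrays. Arpc3B, a subunit of the complex that starts actin branches, read 173, 133, 190.5, 203 and 178 and then 258, 313, 262, 296 and 241, a rise by 0.65 ± 0.12 (adjusted p = 0.0376). Arp3 of the same complex read 1013 ± 22 and 1102 ± 40 (adjusted p = 0.395), and the capping protein gene cpb 421 ± 38.6 and 507 ± 17.3 (adjusted p = 0.158). The cell polarity kinase gene par-1 was higher by 1 of its 5 probe sets, from 175 ± 9.58 to 265 ± 31.3 (adjusted p = 0.0196), and its brightest probe set read 1374 and 1308 (par-1, adjusted p = 0.798).

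Heat shock transcripts gave 1 call, on the probe set that the platform annotation assigns to both Hsp70Aa and Hsp70Ab, near-identical copies of the inducible chaperone that this probe set does not separate. It read 62.9, 103, 76.9, 75.1 and 96 in control and 156, 176, 235, 128 and 189 after exposure, without overlap, and rose by 1.09 ± 0.20 (adjusted p = 0.0345). The call was kept in 6 of the 15 fits that left out an array. A probe set shared by the Hsp70B copies read 93.5 and then 132 on average and did not pass (log2 difference 0.48 ± 0.16, adjusted p = 0.289). None of the 18 chaperone genes with a probe set of their own was called, and their median was 0.02. The constitutive chaperone gene Hsc70-4 had means of 12740 ± 552 and 14050 ± 997 (adjusted p = 0.451) and the small heat shock gene l(2)efl 9738 ± 1155 and 9620 ± 459.9 (adjusted p = 0.983). The stress kinase gene p38a read 516 ± 37 and then 582 ± 14.9 (adjusted p = 0.25). TotC, a secreted stress-response gene, varied widely, from 523 to 1751 on control arrays and from 1209 to 2199 on exposed arrays (adjusted p = 0.273).

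Single genes of transport and of mitochondria were among the higher calls. Of 17 genes listed as amino acid and organic cation transporters 1 was higher (Slc25A46a), beside 0.174% of all tested probe sets. Below 0 lay 13 of the 17, beside 56.8% of all tested probe sets. The median was -0.12, or -0.06 with array medians equalised. SCaMC, a carrier of ATP-Mg and phosphate in the inner mitochondrial membrane, read 854, 898, 889, 922 and 769 in control and 1194, 1109, 1133, 1154 and 1144 after exposure and rose by 0.41 ± 0.06 (adjusted p = 0.015). Slc25A46a, of the same carrier superfamily, rose by 0.27 ± 0.05 (adjusted p = 0.0449). Eglp2, an aquaporin-family channel, went from 478 ± 64.8 to 672 ± 25.1 (adjusted p = 0.0462). The calls of Slc25A46a and Eglp2 were kept in 1 and 3 of the 15 fits that left out an array. Pino, a gene first described from an odour-guided behaviour mutant, read 3413, 3432, 3192, 3356 and 3099.5 and then 4034, 3866, 4239.9, 3943 and 4102 and rose by 0.29 ± 0.05 (adjusted p = 0.0196). The cell surface protein gene cDIP, which binds Dpr and DIP family members, went from 539 ± 88 to 833 ± 80.6 (adjusted p = 0.0345).

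The remaining higher genes are of little known function. CG5767 read 952, 999, 920.2, 927 and 684 in control and 1643, 1393, 1373, 1481 and 1468 after exposure (log2 difference 0.72 ± 0.13, adjusted p = 0.0357). CG13693 went from 394 ± 153 to 746 ± 63.5 (adjusted p = 0.0493), with control array 5 (660.3) inside the exposed range. CG2962 had the largest rise, 1.72 ± 0.33 (adjusted p = 0.0449), on a dim probe set that read 11.7, 44.5, 21.6, 8.9 and 13.7 and then 57, 41.6, 57.4, 53.7 and 72.9, so control array 2 overlapped the exposed arrays. CG15673 rose by 0.34 ± 0.07 (adjusted p = 0.0493). CG6262 was higher by its dimmer probe set, from 266 ± 60 to 442 ± 52.6 (adjusted p = 0.0449), while the brighter one read 2003 and 2002 (CG6262, adjusted p = 0.991). In the 15 fits that left out an array, CG2962, CG13693 and CG15673 each kept their call in 1, CG6262 in 2 and CG5767 in 4. A further 2 probe sets called higher have no single gene name and are not named.

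**Figure D3:**
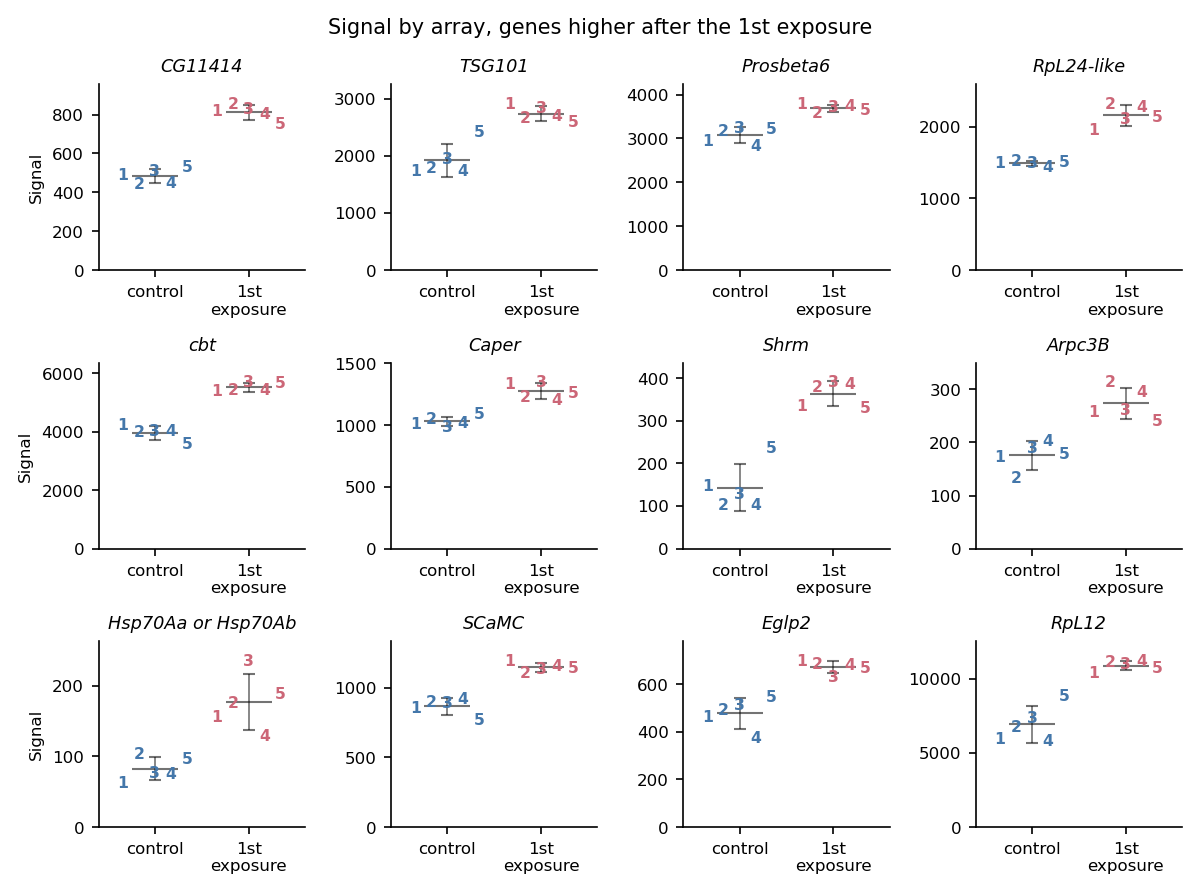
Signal (linear axis from 0) of 12 genes called higher after the 1st exposure on the 5 control and 5 exposed arrays, each digit being the replicate number of 1 array, with the mean (line) and SD (bars) of each group. The exposed arrays lie above the control arrays in each panel, and control array 5 is the closest to them for CG11414, TSG101, Caper, Shrm, Eglp2 and RpL12.

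Of 50 lists of genes by function or tissue, 37 held no called gene. Among the lists of detoxification, none of 75 cytochrome P450 genes passed (median -0.03), and none of 31 UDP-glycosyltransferases (median -0.11, 24 below 0). Over all tested probe sets 56.8% lay below 0, and with array medians equalised the UDP-glycosyltransferase median was -0.05. Cyp6a13 read 444, 398, 365, 375 and 408 in control and 488, 533, 537, 508 and 536 after exposure, without overlap, but its difference of 0.39 ± 0.08 stayed above the threshold (adjusted p = 0.0764). Cyp6a2, a P450 known from insecticide resistance, had means of 269.6 ± 23.5 and 311 ± 17.6 (adjusted p = 0.326). Cyp4g1, the hydrocarbon-forming P450 of oenocytes, read 26650 ± 2498 and 24720 ± 1444 (adjusted p = 0.695). Of the glutathione S-transferases, the list with GstE4 and GstD11 lower, GstD1 read 10010 ± 498 and 10460 ± 410.1 (adjusted p = 0.738) and GstD5 219.8 ± 18.6 and then 297 ± 62.3 (adjusted p = 0.23).

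None of 10 measured genes of alcohol and polyol oxidation was called (median 0.03). Values of Adh and Aldh are not given here, and the count alone does not show whether they were among the 10. The nearest was Drat, of the alcohol dehydrogenase superfamily, with Signal values of 3450.3, 3648, 3239, 3470.1 and 3324 in control and 4001, 3877, 4265, 3944 and 4397 after exposure. The groups did not overlap, and the difference was 0.26 ± 0.05 (adjusted p = 0.054). Sodh2, a sorbitol dehydrogenase gene, had means of 239.6 ± 10.7 and 188 ± 23.1 (adjusted p = 0.151), while its relative Sodh1 had 3448 ± 349 and 3640 ± 607 (adjusted p = 0.921). AcCoAS, which makes acetyl-CoA from acetate, read 6392 ± 537 and 6331 ± 319 (adjusted p = 0.984), and the catalase gene Cat 7263 ± 186 and 7345 ± 179 (adjusted p = 0.955).

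Downstream of acetyl-CoA, none of 12 fatty acid synthesis genes, 5 acyl-CoA binding proteins, 26 genes of lipid storage and lipolysis and 17 genes of the pyruvate node and gluconeogenesis was called, with medians of 0.03, -0.14, 0.03 and 0.01. FASN1, the main fatty acid synthase, had means of 16580 ± 543 and 15710 ± 504 (adjusted p = 0.768). The lipase gene bmm, which opens fat stores, read 1488, 1576, 1397, 1737 and 1244 in control and 1926, 2183, 1946, 2018 and 2228 after exposure, without overlap, yet its difference of 0.48 ± 0.12 did not pass (adjusted p = 0.161). The carnitine palmitoyltransferase gene whd read 2312 ± 193 and then 2907 ± 168 (adjusted p = 0.319). Pdk, the kinase that shuts off pyruvate dehydrogenase, read 2627 ± 128 and then 3013 ± 194 (adjusted p = 0.211), and the gluconeogenic gene Pepck1 7447 ± 1712 and 10180 ± 1381 (adjusted p = 0.239). PCB, the pyruvate carboxylase, read 6910 ± 288 and 6663 ± 512 (adjusted p = 0.87). The 11 glycolytic enzymes had a median of 0.00 and the 75 subunits of oxidative phosphorylation one of 0.03, and none passed.

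In insulin and FOXO signalling, none of 18 genes passed (median 0.00). Thor, the translation inhibitor 4E-BP that FOXO turns on in fasting, read 8078, 8804, 8045, 8562 and 8193 in control and 10864, 10259, 9901, 10484 and 11329 after exposure. Its groups did not overlap and its difference was 0.34 ± 0.08 (adjusted p = 0.0922). Akt, the kinase downstream of the insulin receptor, had means of 529 ± 56 and 664 ± 40.2 (adjusted p = 0.32), and the receptor gene InR 375 ± 75.9 and 447 ± 51.8 (adjusted p = 0.49). Maltases and amylases, which digest starch and sugars, had 11 of 12 genes above 0 and the highest median of the lists with at least 5 genes (0.21), but none was called. Over all tested probe sets 56.8% lay below 0, and with array medians equalised the median of this list was 0.28. Mal-B2 read 1848 ± 124 and then 2419 ± 294 (adjusted p = 0.11), and tobi, a glucosidase gene under insulin and glucagon-like control, 2490 ± 517 and then 3540 ± 354 (adjusted p = 0.17).

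Genes of the nervous system mostly lay below 0 and none was called in its lists. Of 17 potassium channel genes 15 lay below 0 (median -0.15), of 17 GABA and glutamate genes 13 (median -0.07), and of 15 biogenic amine genes 11 (median -0.14), beside 56.8% of all tested probe sets. The slo channel gene, which shapes ethanol tolerance, read 359, 344, 436, 349.6 and 393 in control and 330.4, 338, 252, 324 and 266 after exposure, without overlap and without passing (log2 difference -0.32 ± 0.12, adjusted p = 0.349). The tolerance gene hang read 518, 459, 459, 461 and 492 and then 415, 377, 444, 382 and 393, also without overlap (log2 difference -0.25 ± 0.07, adjusted p = 0.191). The octopamine synthesis gene Tbh had means of 61.3 ± 10.3 and 62.1 ± 14.5 (adjusted p = 1), the neuropeptide gene NPF 224 ± 29.6 and 258 ± 20.1 (adjusted p = 0.466), and the adenylyl cyclase gene rut 148 ± 17.1 and 129.5 ± 20.4 (adjusted p = 0.647). The serotonin transporter gene SerT read 136 ± 28.1 and then 97.8 ± 7.56 (adjusted p = 0.164), and the GABA receptor gene Rdl 311 ± 54.9 and then 212 ± 49.9 (adjusted p = 0.211). The medians of these 3 lists moved to -0.09, -0.01 and -0.08 with the array medians equalised.

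**Figure D4:**
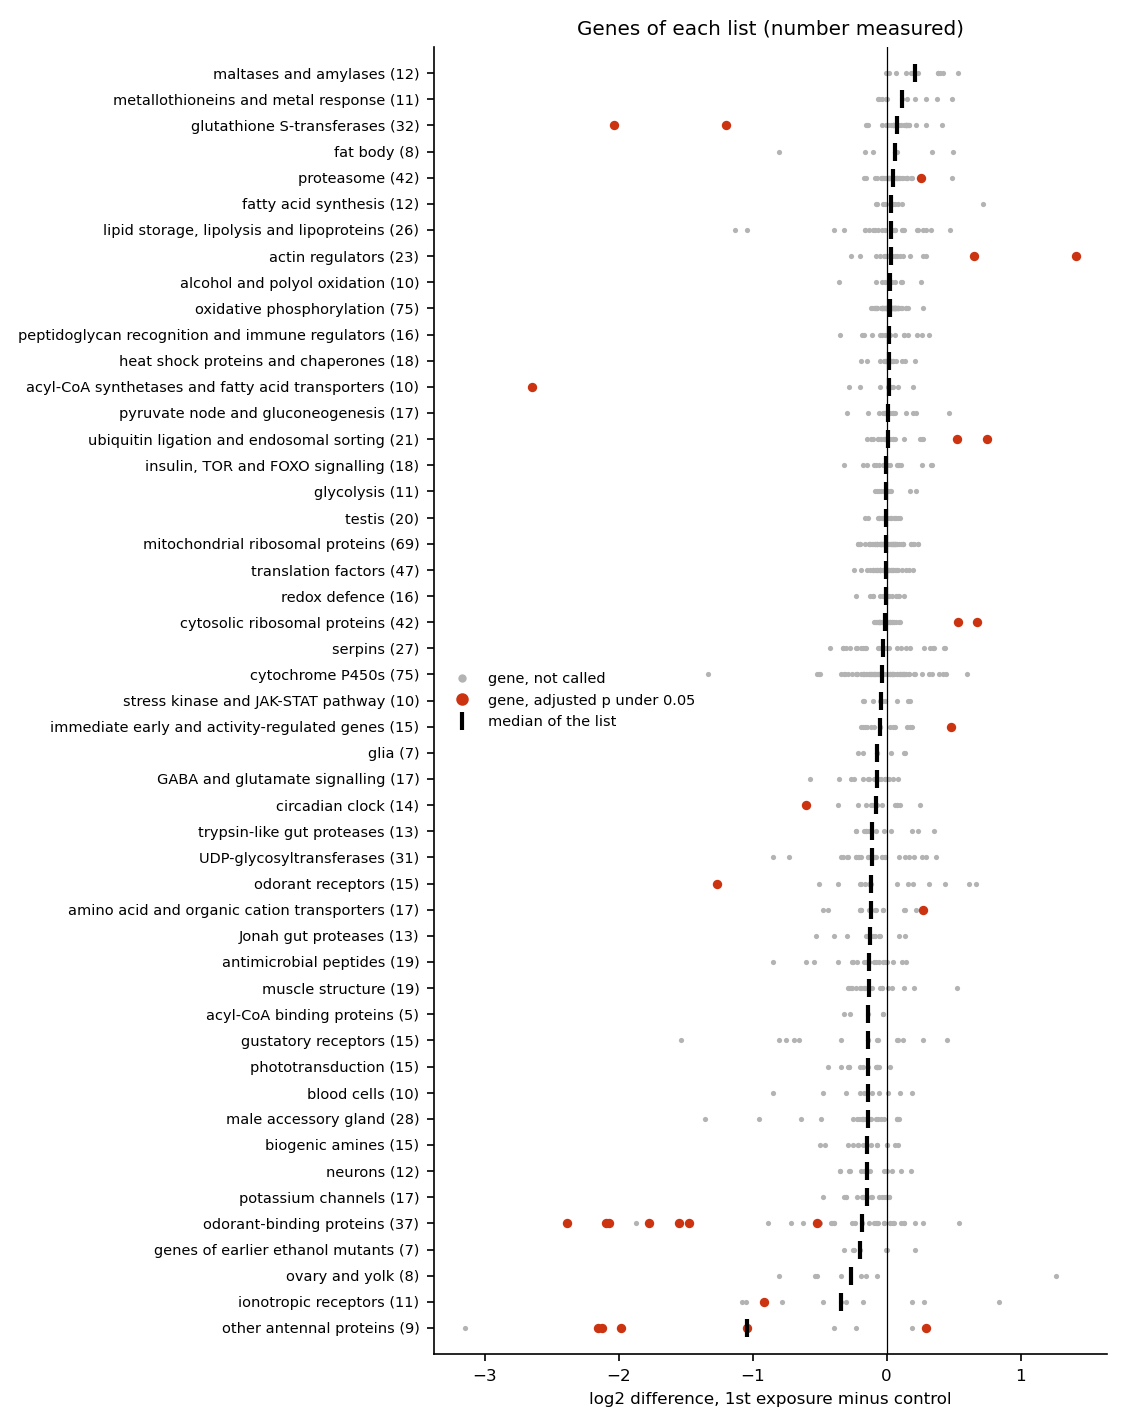
Log2 differences between the 1st exposure and control for every measured gene of the lists with at least 5 genes (grey points, red where the adjusted p is under 0.05), with the median of each list (black bar) and the number of genes measured in parentheses. Only the other antennal proteins have a median beyond 1 in size (-1.04), and most called genes lie far from the median of their list.

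Lists of other tissues and of immunity held no call. Gut proteases were not called, neither the 13 trypsin-like (median -0.11) nor the 13 Jonah genes (median -0.12, 11 below 0). None of 19 antimicrobial peptide genes passed (median -0.13, 15 below 0), and Rel, the transcription factor of the Imd pathway, read 1302 ± 72.7 and then 1623 ± 90.3 without overlap (adjusted p = 0.151). MtnC, a metal-binding metallothionein, read 2489.8, 3298, 2759, 2332 and 2232 in control and 3538, 3765, 3546, 3716 and 3653 after exposure, also without overlap (log2 difference 0.49 ± 0.14, adjusted p = 0.198), whereas the abundant MtnA had means of 26410 ± 2032 and 25230 ± 1418 (adjusted p = 0.86). None of 19 muscle, 28 accessory gland, 20 testis, 8 fat body or 10 blood cell genes was called, and their medians were -0.13, -0.14, 0.00, 0.06 and -0.14. Of the accessory gland genes 24 lay below 0, with a summed Signal of 206290 to 287140 in control and 205220 to 240520 after exposure. Beside these lists, 56.8% of all tested probe sets lay below 0. With array medians equalised the accessory gland median was -0.08.

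The genes changed at the 1st exposure were followed to the 2nd, which used the same control arrays, and the direct contrast of both exposures was tested. It passed for 5 of the 50, beside 1.76% of all tested probe sets, and the 50 had been chosen by the 1st exposure arrays that this contrast also uses. Signal of per was 210.3, 193, 215, 198 and 199 after the 2nd exposure, above every control array. The difference from the 1st was 1.13 ± 0.12 (adjusted p = 0.000199), and per was higher than control by 0.54 ± 0.12 (adjusted p = 0.0207), where 3.63% of all tested probe sets differed from control. Males of the 2nd exposure were also frozen later in the day, after 2 h of recovery. The study names this difference in sampling time as a possible source of higher clock genes. For per, time of day and the 2nd exposure cannot be told apart. Ir25a read 58.4, 39.5, 60.7, 59.4 and 57.7, CheB42b 164, 164, 179, 152 and 165 and CG12158 986, 863, 862, 1127 and 1167. These 3 genes were higher than after the 1st exposure by 0.88, 0.38 and 0.45 (adjusted p = 0.0215, 0.0243 and 0.0413), and against control they differed by -0.03, -0.03 and -0.17 without passing. Pino rose further, to 4824, 4644, 4541, 4738 and 4537, by 0.21 ± 0.05 over the 1st exposure (adjusted p = 0.0444). Without 2nd exposure array 5, on which the yolk genes were high, only per of these 5 genes passed the contrast of both exposures (adjusted p = 0.000931), and the adjusted p was 0.0517 for Ir25a, 0.0523 for CheB42b, 0.0968 for CG12158 and 0.0753 for Pino.

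For the 12 antennal genes averaged by array the contrast between exposures did not pass, unlike for Ir25a and Pino. Obp83a had a mean of 437 ± 189 after the 2nd exposure, a difference from the 1st of -0.16 ± 0.27 (adjusted p = 0.822). The same difference was -0.05 ± 0.17 for lush (adjusted p = 0.917) and -0.02 ± 0.30 for a10 (adjusted p = 0.981). Among the higher genes, CG11414 had a mean of 861 ± 45.8 (difference 0.09 ± 0.06, adjusted p = 0.557) and cbt one of 5753 ± 337 (difference 0.06 ± 0.06, adjusted p = 0.671). Thor and ImpL2, a secreted insulin-binding protein gene, were not called at the 1st exposure and were lower at the 2nd than at the 1st, with log2 differences of -0.50 ± 0.08 (adjusted p = 0.00523) and -0.45 ± 0.05 (adjusted p = 0.000251). For tim, a clock gene like per and subject to the same later sampling, the difference was 0.53 ± 0.11 (adjusted p = 0.0238). These 3 genes also passed without 2nd exposure array 5 (adjusted p = 0.014, 0.00121 and 0.00169).

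**Figure D5:**
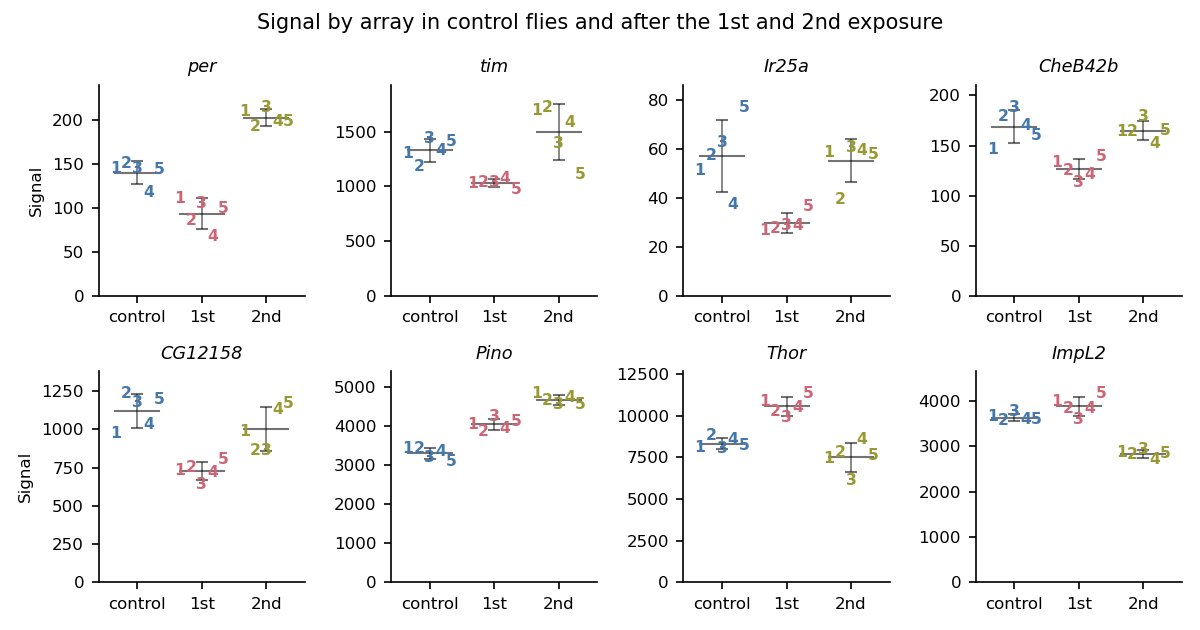
Signal (linear axis from 0) of 8 genes on the 5 arrays of control flies and of flies after the 1st and 2nd exposure, each digit being the replicate number of 1 array, with the mean (line) and SD (bars) of each group. For per, tim, Ir25a, CheB42b and CG12158 the 1st exposure arrays are the lowest of the 3 groups, and for Thor they are the highest.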

How the data were processed

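RNA of 15 pools of whole Canton-S B males (5 control, 5 after the 1st and 5 after the 2nd exposure to ethanol) was hybridized to Affymetrix Drosophila GeneChip 2.0 arrays. The deposited values are linear Signal intensity, which the authors derived per probe set from its perfect-match and mismatch pairs in Microarray Suite 5.0 (MAS5 in the submitters' processing notes) with scaling of each array. The mean Signal after trimming both ends was 497 to 498 on each array. Precision depends on how many arrays there are.

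Of 18952 probe sets, 183 controls were left out. The methods drop probe sets called Absent. Those calls were not used here, and a filter on dim values took their place: 13809 probe sets averaged a Signal of 20 or more. The platform annotation gives 1 symbol for 13647 probe sets, several for 402 and none for 4686, and 34 more names came from the study's lists. A gene was read by its probe set with the highest mean Signal, and any other passing probe set is named as such. Log2(Signal) of all 15 arrays was fitted in R 4.3.3 by limma 3.58.1, a linear model with a mean for each treatment whose variances are moderated by empirical Bayes. P-values were adjusted after Benjamini and Hochberg over all tested probe sets, and the threshold was 0.05. Errors are SD for Signal and SE for log2 differences, with n = 5. The spread is that between pools, and each p-value measures only this.

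Members, lists and tests were chosen with earlier results of these data known. Every called gene with 1 symbol is named. A further 86 genes without a call were examined by name, and not all of them appear in the text. They lead a list, are named by the study, mark a tissue or came close to the threshold, and some were picked after their values were seen. Alternatives were quantile normalization, equalised array medians, log2(Signal + 50), linear Signal with the one-way analysis of variance of the methods, other Signal filters, replicate number as a block, an eBayes trend, arrayWeights, the 10 arrays alone, Storey q-values, the nearest arrays averaged, a residual component as covariate, averaging a gene's probe sets, and each array left out. The steps were tested on simulated data. Other steps ran in Python 3.11.15 (matplotlib 3.10.9 for plots, numpy 2.4.6 and pandas 2.3.3 for tables). The methods' classes of response and the mutant assays were not analysed here.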

Additional observations from a re-analysis of the deposited data

Results flagged for a closer look

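For 136 genes or probe sets, 272 groups of 5 arrays were examined. An array far from the other 4 of its group was found in 24 of them, and chance alone gives about 1 in 20 groups. In 9 of the 24 it was control array 5. That array stood above the other controls for CG13693 (660.3), Obp19d (8895), Hrb98DE (659.0), l(2)efl (11763), the eye genes Arr1 (13162), Arr2 (22023) and trp (3225), and the myosin light chain gene Mlc2 (18814), and below them for CG5767 (684.4). Control array 4 stood low for per (118.1) and RpL24-like (1433) and high for Hr38 (195.4), control array 1 low for GstD1 (9158) and Men (6138), and control array 2 low for Jra (520.6). Among the 1st exposure arrays, array 1 stood low for cDIP (689.8) and TotC (1209) and high for the actin gene Act79B (21095). Array 3 stood low for GstE4 (52.8) and OS9 (233.0). Array 5 stood low for a5 (2.1) and sr (68.3) and high for Ir25a (36.7) and Hsc70-4 (15822).

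The 2nd exposure differed from the 1st by the limma contrast for 15 named genes. Those higher at the 2nd, as log2 differences, were Obp99d (1.83), per (1.13), Ir25a (0.88), the serpin gene Spn27A (0.70), CG31106 (0.64), tim (0.53), CG12158 (0.45), the malic enzyme gene Men (0.39), CheB42b (0.38), l(2)efl (0.36) and Pino (0.21). Those lower at the 2nd were Thor (-0.50), the transporter gene mnd (-0.46), ImpL2 (-0.45) and the acyl-CoA binding protein gene Acbp5 (-0.38). Without 2nd exposure array 5, Ir25a, CheB42b, CG12158 and Pino no longer passed.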

How the results depend on the processing

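The count of 50 probe sets (24 higher and 26 lower), of which 5 also differed between the exposures, moved with several choices, while no called gene changed direction under any alternative. It was 81 with equalised array medians (59 higher and 22 lower), where the median log2 difference of all probe sets went from -0.02 to 0.04, and 11 then differed between the exposures. Quantile normalization gave 32 higher and 20 lower, and 0 that differed between the exposures. Without a Signal filter 27 passed (8 higher), 0 of them different between the exposures, and more probe sets were tested. With a mean Signal of at least 70, 39 were higher and 10 differed between the exposures. An eBayes trend gave 85 (49 higher, 10 different between the exposures) and arrayWeights 88 (48 higher, 40 lower, 12 different). With the 1st residual component as covariate 96 passed (51 higher, 45 lower, 19 different). The 10 arrays alone, with fewer residual degrees of freedom, gave 26 (10 higher and 16 lower). Averaging control arrays 1 and 4 and 1st exposure arrays 2 and 4, the nearest of each group, left 8 (4 higher and 4 lower), with 1 odorant-binding protein, 1 other antennal protein and 0 different between the exposures. Control arrays 1 and 4 differed by an SD of 0.50 on the log2 scale and 1st exposure arrays 2 and 4 by 0.52, against 0.53 to 0.61 for the other pairs. The cause of the other shifts was not tested.

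Leaving out 1 array gave 16 to 49 probe sets, 4 to 26 higher, 12 to 28 lower, 6 to 7 odorant-binding proteins, 2 to 4 other antennal proteins and 0 to 5 different between the exposures. The lowest total came without 1st exposure array 3, without 2nd exposure array 5 the contrast of the exposures passed for 1 of the 50, and without control array 3 none differed between the exposures.

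The labels do not say that arrays of 1 replicate number belong together, and the values do not settle it. Residuals of control and 1st exposure arrays of the same number correlated at -0.03 to 0.10 (median -0.001). Those of different numbers correlated at -0.08 to 0.06 (median -0.004), so the highest value was of a same-number pair. In the mean of the 12 antennal genes, array 3 was the lowest of its group in each treatment (-0.45, -2.01 and -2.22). With the replicate block 32 probe sets passed (10 higher and 22 lower), 1 of them different between the exposures, and 29 of the 50 calls were kept.

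Of the 50 calls, 46 were kept with equalised medians, 42 with quantile normalization, 47 with log2(Signal + 50), 33 with linear Signal and 22 with the 10 arrays alone. Among genes with several probe sets, the mean of the probe sets kept 1 of 6 calls. The trend, arrayWeights and equalised medians added 6, 4 and 4 of the 86 genes examined without a call to the calls. Dim probe sets limit what can be seen: 5 of the 50 had a control mean under 100, and few receptor genes reached the minimum.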
